A study of Mus musculus with 48 samples.

Results

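The wild-type (WT) descending aorta (DA) was compared with the WT ascending aorta (AA) of mouse embryos on embryonic day 17.5 (E17.5). Arrays were taken by their labels, as WT arrays of that day in each of the study's 3 knockout models, Eln, Efemp2 and Lox. This gave 12 of the 48 arrays of the series, 6 of DA and 6 of AA, with 2 arrays per model and location. The WT mice of the Eln and Efemp2 models are labelled C57BL/6 and those of the Lox model B6 albino, and no WT group carries a deletion or received a treatment per the labels. Aortas were snap frozen, like tissues of 8 animals were pooled for each array, and 5 ng of total RNA was amplified. No label says whether the 2 arrays of a group came from separate pools or from litters of their own. The p-values of the DA against AA test thus rest on the spread between these arrays, which may be technical. They also rest on how far the location difference varied between the 3 models. The series also holds knockout (KO) arrays of the same day and arrays of postnatal day 1 (P1), which were used for comparison.

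The aorta joins segments of different embryonic origin. Smooth muscle of the ascending aorta comes from the neural crest and the second heart field, and that of the descending aorta from the somites of the paraxial mesoderm. Position along the body axis is recorded by the Hox genes, transcription factors whose paralog groups switch on in order from head to tail. The descending aorta also lies beside the sympathetic chain and its chromaffin tissue, while the ascending aorta leaves the heart and is enclosed at its root by the pericardium.

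Levels are given as log2 array signal. Each difference is DA less AA, fitted with the model as a block, and 1 unit stands for a 2-fold change in signal. Errors are standard errors (SE) from limma, a linear model with moderated variances. Where 3 levels follow each other they are the lowest, the median and the highest of the 6 arrays of a location. A gene was called when its p-value, after Benjamini-Hochberg adjustment across the 12259 genes tested, was under 0.05. A gene was tested when at least 1 of the 6 group means reached 4.94. A gene dim in 1 location could thus enter through the other alone, which can sway the counts and medians of lists. In pooled tissue, more cells of a type and more RNA per cell cannot be told apart, and this holds for every gene named.

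The arrays carried the smooth muscle genes that define this tissue. Acta2, smooth muscle actin, read 10.86, 11.78 and 12.15 in AA and 10.87, 11.87 and 11.97 in DA, and Myh11, the smooth muscle myosin heavy chain, 9.03, 9.23 and 10.36 and 9.44, 9.85 and 10.45. Array medians ran from 4.36 to 4.49 in the Eln and Efemp2 models and from 3.71 to 3.82 in the Lox model, a difference that the block takes up. The 2 arrays of a group correlated at r = 0.938 to 0.986 over the genes tested in 5 of the groups and at r = 0.917 in AA of the Efemp2 model. In that group replicate 1 stood apart, with a mean of 7.62 over the heart muscle markers against 6.49 in replicate 2. Its mean over the smooth muscle genes was 8.83 against 9.21. Only some values that turn on it are given with and without it. Without it, for example, the DA less AA difference of Acan moved from -0.85 to -1.03 and that of Ntn4 from -0.76 to -0.57. Where a call is said to end without any 1 of several arrays, this array can be among them.

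Of the 12259 genes, 494 were called, which is 4.03%. In DA 317 genes were higher (2.59%) and 177 were lower (1.44%), while the median difference of all genes was -0.01. These 2 shares and this median are the base for every list count and list median below. Among the higher genes, 102 differed by more than 2-fold and 10 by more than 4-fold. Of the lower genes 34 passed 2-fold and 1, Osr2, passed 4-fold. All 317 higher and all 177 lower genes had the same sign in the 3 models, which a call made on these same arrays favours. Both DA arrays lay on the called side of both AA arrays in each of the 3 models for 287 and 144 of them. Of all genes tested 3.67% showed that order upward and 2.56% downward. Without AA replicate 1 of the Efemp2 model, 327 genes were higher and 208 lower. The count of lower genes fell to 113, 110 and 116 without AA replicate 2, DA replicate 1 or DA replicate 2 of the Eln model.

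**Figure D1:**
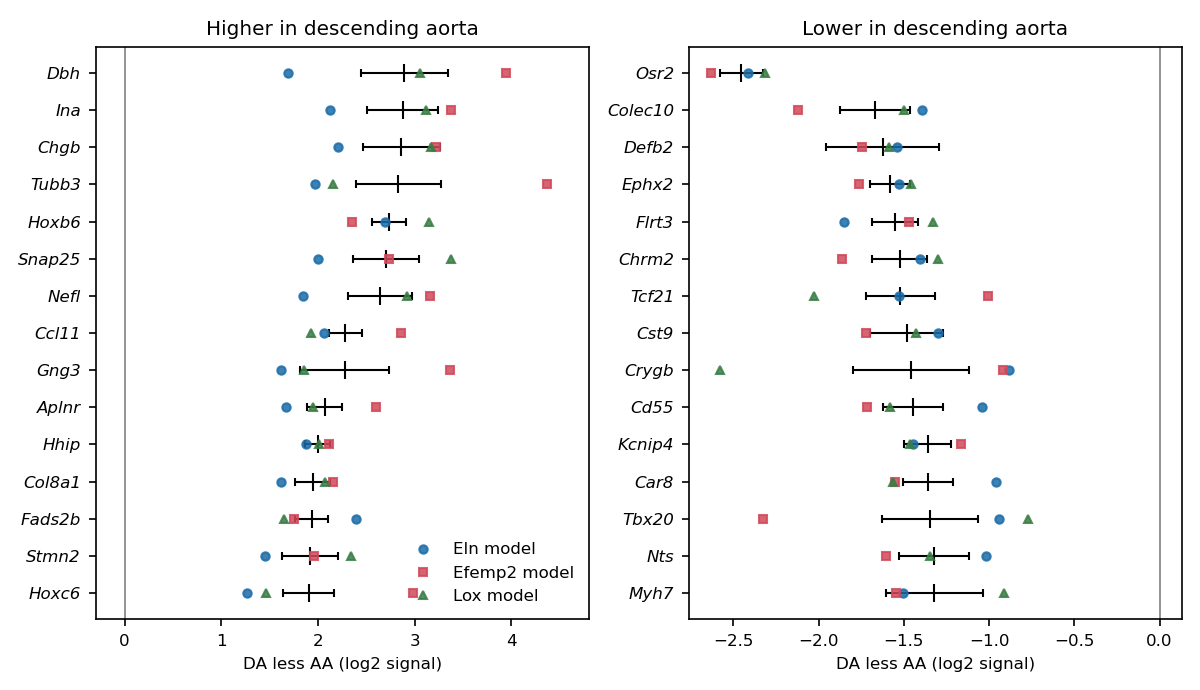
DA less AA of the 15 genes with the highest and the 15 with the lowest difference among called genes, as log2 signal on the x axis. Black ticks with bars are the fitted difference and its SE over 12 arrays and coloured points the difference within each model (2 arrays against 2). All points of a gene lie on 1 side of 0, and Osr2 has the lowest value, at -2.45.

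The most negative difference was that of Osr2, an odd-skipped related transcription factor of developing mesenchyme. Its level was 6.55, 6.95 and 7.10 in AA and 4.19, 4.47 and 4.66 in DA. The groups stood well apart in every model, with differences of -2.42, -2.63 and -2.31 in the Eln, Efemp2 and Lox models. The fitted difference was -2.45 ± 0.12 (SE, adjusted p = 3.16e-07), a 5.47-fold lower signal in DA. Over the 24 alternative analyses it stayed between -2.53 and -2.36 and was called in each.

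Of 17 tested Hox genes 10 were higher in DA and none was lower, where 2.59% and 1.44% of all genes tested were higher and lower. Hoxc6 stayed under 4.94 on every AA array and was tested through DA alone. The filter takes group means, so members with only some AA arrays above 4.94, such as Hoxb6, may also have entered that way. Such members were not counted. The filter thus has a part in these counts and in the medians that follow. Of the members of paralog groups 6 to 13, 9 were tested, 7 were higher, none was lower, and their median difference was 0.95. Of groups 1 to 5, 8 were tested, 3 were higher, none was lower, and the median was 0.56. The remaining 19 Hox genes with a probe set of their own did not reach the level needed for testing in any of the 6 groups.

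Hoxb6 read 4.46, 4.53 and 5.36 in AA and 6.65, 7.39 and 8.16 in DA. The lowest DA array lay more than 1 unit above the highest AA array. The difference was 2.73 ± 0.18 (SE, adjusted p = 2.42e-06), with 2.70, 2.35 and 3.15 in the Eln, Efemp2 and Lox models. Hoxc6 read 2.86, 3.87 and 4.52 in AA and 5.06, 5.68 and 6.42 in DA, again without overlap, and differed by 1.90 ± 0.26 (SE, adjusted p = 0.000826). Its difference in the Efemp2 model, 2.99, was the largest of the 3, and in the Eln and Lox models it was 1.27 and 1.46. Hoxa5 went from 3.79, 4.98 and 5.48 in AA to 5.81, 6.40 and 7.04 in DA, a difference of 1.57 ± 0.20 (SE, adjusted p = 0.000448). The 6 DA arrays of Hoxa5 lay above the 6 AA arrays.

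In order of paralog group, the differences of the called members were 1.42 for Hoxc4, 1.57 for Hoxa5, 0.96 for Hoxb5, 1.41 for Hoxa6, 2.73 for Hoxb6 and 1.90 for Hoxc6. They were 0.95 for Hoxa7, 1.40 for Hoxc8, 0.94 for Hoxd8 and 0.66 for Hoxa9. Another probe set of Hoxb5 gave 1.73 in place of 0.96. The genes of groups 2 and 3 did not pass the threshold, with Hoxa2 at -0.29 (adjusted p = 0.194), Hoxa3 at 0.05 (adjusted p = 0.954) and Hoxb3 at 0.56 (adjusted p = 0.0934). Neither did Hoxa4 at -0.06, Hoxb4 at 0.56, Hoxb9 at 0.32 or Hoxd10 at 0.36. Within group 4 the clusters thus read differently, with Hoxc4 called and Hoxa4 close to 0. The test of a difference between paralogs was not run. The Hoxa9 call ended without any 1 of 8 of the 12 arrays, with an adjusted p of up to 0.0836.

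**Figure D2:**
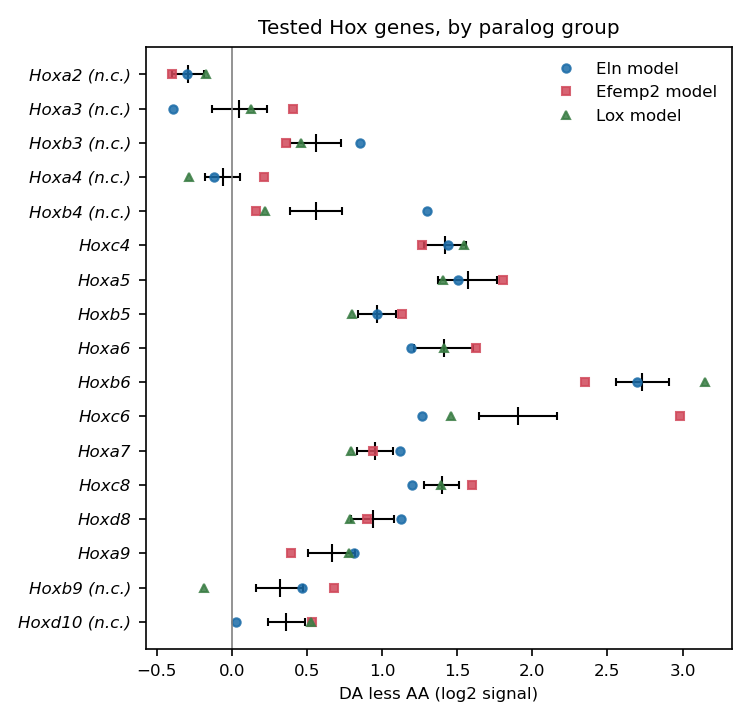
DA less AA (log2 signal, x axis) of the 17 tested Hox genes, ordered by paralog group from top to bottom. Black bars are the fitted difference and SE, coloured points the 3 models, and n.c. marks genes that were not called. From Hoxc4 to Hoxa9 all genes lie above 0 in the 3 models, and from Hoxa2 to Hoxb4 none was called.

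The Pbx, Meis and Pknox genes encode homeodomain proteins that bind DNA together with Hox proteins. None of the 8 tested was called. Their differences ran from -0.34 for Meis2 (adjusted p = 0.139) to 0.16 for Pbx2 (adjusted p = 0.811).

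Other transcription factors of the embryonic sources of the vessel wall went both ways. Of 13 tested factors of paraxial and lateral mesoderm, 3 were higher, 2 were lower and the median difference was 0.24. Meox2, a homeobox factor of the somite and of vascular cells, was higher by 1.01 ± 0.16 (SE, adjusted p = 0.00213). Tcf15, also called paraxis and needed for epithelial somites, was higher by 0.73 ± 0.14 (adjusted p = 0.00836), and Foxd1, a forkhead factor of stromal precursors, by 0.97 ± 0.13 (adjusted p = 0.000535). The lower ones were Osr2 and Tcf21.

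Tcf21, a basic helix-loop-helix factor of epicardial and fibroblast precursors, read 5.91, 6.31 and 7.21 in AA and 3.58, 4.77 and 6.17 in DA. The groups overlapped across models, but within each model both DA arrays lay below both AA arrays. The difference was -1.52 ± 0.20 (SE, adjusted p = 0.000660), with -1.53, -1.01 and -2.03 in the 3 models. Of the other mesothelial and epicardial markers tested, 10 in number, none was called, among them Wt1 at 0.37 (adjusted p = 0.159) and Upk3b at -0.03 (adjusted p = 0.978).

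Among 16 tested factors of the second heart field and outflow tract, 1 was higher and 3 were lower, with a median of -0.05. Tbx20, a T-box factor of heart and outflow tract, read 6.16, 7.18 and 8.75 in AA and 5.2, 5.65 and 6.52 in DA. Its highest AA value, 8.75, came from replicate 1 of the Efemp2 model, the array that stands apart. The difference was -1.35 ± 0.28 (SE, adjusted p = 0.0152) with that array and -1.02 without it (adjusted p = 0.00112). Gata6 and Gata5, zinc finger factors of the outflow tract and endocardium, were lower by smaller amounts, -0.43 ± 0.11 (SE, adjusted p = 0.0342) and -0.55 ± 0.14 (SE, adjusted p = 0.0452). These calls ended without any 1 of 9 and 10 of the 12 arrays, at an adjusted p of up to 0.0971 and 0.126. Eya1, a transcriptional cofactor, was higher in DA by 1.31 ± 0.22 (SE, adjusted p = 0.00362). Isl1 and Nkx2-5, the best known factors of the second heart field, differed by 0.36 (adjusted p = 0.463) and 0.06 (adjusted p = 0.927).

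Of 14 tested factors of the neural crest and branchial arches, 2 were higher, 2 were lower and the median was -0.02. Dlx5 and Dlx6, a linked pair of distal-less homeobox genes of the arches, were lower, at -0.95 ± 0.15 (SE, adjusted p = 0.00275) and -0.76 ± 0.17 (SE, adjusted p = 0.0242). Prrx1, a homeobox gene of mesenchyme, read 6.44, 7.20 and 7.36 in AA and 7.56, 8.03 and 8.25 in DA, with no overlap, and was higher by 0.93 ± 0.11 (SE, adjusted p = 0.000252). Tfap2b, a factor of the crest and of sympathetic neurons, was higher by 1.71 ± 0.42 (SE, adjusted p = 0.0361). Its difference ran from 0.63 in the Eln model to 2.64 in the Lox model. The calls of Tfap2b and Dlx6 ended without any 1 of 8 and 7 of the arrays, at an adjusted p of up to 0.0953 and 0.0679.

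The highest differences belonged to genes of neurons and chromaffin cells, which make, store and release catecholamines. Of 15 tested markers of this kind 13 were higher and none was lower, with a median difference of 1.47 against -0.01 over all genes. Over all genes tested 2.59% were higher and 1.44% lower. Dbh, Chgb and Tubb3 stayed under 4.94 on every AA array and so were tested through DA alone. The filter takes group means, so members with only some AA arrays above 4.94, such as Th, may also have entered through DA alone. Such members were not counted. The count and median are thus partly set by the filter. The mean level of the marker list was 4.37 to 5.11 on the AA arrays and 5.42 to 7.5 on the DA arrays. The DA array with the highest mean was replicate 2 of the Efemp2 model, at 7.5 against 6.16 in replicate 1. Without it 12 of the 15 were higher, and over the 12 analyses that each left out 1 array the count was 9 to 13.

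Some of these genes carry the cAMP response element, the 8-base site TGACGTCA, in the stretch before their start. It reads the same on both strands and was searched in the 250 bases before the start. Of the 13 called markers 10 matched a promoter in RefSeq (build GRCm38.p6), and 3 of the 10 (30%) held the site. Counted by gene, the site stood in a promoter of 1.77% of all 27025 genes with a promoter in RefSeq. Among genes with a promoter the share was 2.88% of tested genes, 3% of genes called higher and 2.17% of genes called lower. The stretches are shown because these members differed together. Each runs 5′ to 3′ on the gene's strand, with the site in capitals, and ends at the base before the start. They lie at chr1:79440027-79440186 on the minus strand for Scg2, chr2:132781482-132781641 on the plus strand for Chgb and chr7:142899996-142900155 on the minus strand for Th. The sites begin 68, 72 and 45 bases before the start. A match is a description of the letters and was not tested for use in this tissue.
Scg2: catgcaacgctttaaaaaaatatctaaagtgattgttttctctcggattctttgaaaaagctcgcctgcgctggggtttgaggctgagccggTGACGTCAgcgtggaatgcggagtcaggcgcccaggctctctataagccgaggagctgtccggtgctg
Chgb: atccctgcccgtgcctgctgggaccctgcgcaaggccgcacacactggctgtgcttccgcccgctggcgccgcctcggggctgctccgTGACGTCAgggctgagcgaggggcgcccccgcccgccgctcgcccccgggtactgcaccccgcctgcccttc
Th: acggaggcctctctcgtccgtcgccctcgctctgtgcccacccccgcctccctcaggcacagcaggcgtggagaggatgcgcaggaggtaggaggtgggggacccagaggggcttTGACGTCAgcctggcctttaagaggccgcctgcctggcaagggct

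Of the enzymes of catecholamine synthesis, Dbh, Th and Ddc were higher in DA, and Pnmt was not tested. Dbh, which turns dopamine into noradrenaline, read 3.29, 3.80 and 4.6 in AA and 5.30, 6.65 and 8.89 in DA. No arrays overlapped, and the difference was 2.89 ± 0.45 (SE, adjusted p = 0.00203), or 7.43-fold. Th, the rate-limiting tyrosine hydroxylase whose promoter holds the site, read 4.21, 4.84 and 5.10 and 4.92, 5.91 and 8.39. The top value came from DA replicate 2 of the Efemp2 model, and the lowest DA array lay inside the AA range. The difference was 1.34 ± 0.34 (SE, adjusted p = 0.0413), and the call ended without any 1 of 8 of the arrays, at an adjusted p of up to 0.105. Ddc, the decarboxylase between them, differed by 0.94 ± 0.22 (SE, adjusted p = 0.0269) and was lost without any 1 of 6 arrays, at up to 0.0739. Pnmt, which makes adrenaline and marks the adrenal type of chromaffin cell, lay under the level needed for testing, at 2.31, 3.48 and 3.67 in AA and 2.58, 3.46 and 3.91 in DA.

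Genes for proteins of secretory granules showed the same direction. Chgb, chromogranin B, read 3.50, 4.03 and 4.50 in AA and 5.48, 6.85 and 8.37 in DA, without overlap. It differed by 2.86 ± 0.40 (SE, adjusted p = 0.000996), with 2.20, 3.22 and 3.16 in the 3 models. Scg2, secretogranin, went from 4.44, 5.01 and 5.35 to 5.99, 6.80 and 7.33 and differed by 1.80 ± 0.16 (SE, adjusted p = 3.65e-05). Chga, chromogranin A, differed by 1.21 ± 0.25 (SE, adjusted p = 0.0147). Genes of amine transport were higher too. The noradrenaline transporter gene Slc6a2 differed by 1.48 ± 0.19 (SE, adjusted p = 0.000535) and the vesicular transporter gene Slc18a2 by 0.97 ± 0.20 (SE, adjusted p = 0.0130). Npy, a cotransmitter of sympathetic nerves, differed by 1.70 ± 0.40 (SE, adjusted p = 0.0270) and lost its call without any 1 of 5 arrays, at up to 0.0748.

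Structural genes of neurons were among the top of the whole comparison. Tubb3, neuronal tubulin, went from 3.58, 4.29 and 4.90 in AA to 5.48, 6.56 and 9.95 in DA and differed by 2.83 ± 0.44 (SE, adjusted p = 0.00206). In the Efemp2 model its difference was 4.37, against 1.97 and 2.16 in the Eln and Lox models. Ina, the neurofilament protein alpha-internexin, differed by 2.87 ± 0.37 (SE, adjusted p = 0.000475), and Nefl, the light neurofilament chain, by 2.64 ± 0.33 (SE, adjusted p = 0.000456). Snap25, of the synaptic fusion complex, differed by 2.71 ± 0.34 (SE, adjusted p = 0.000456), and Gng3, a neuronal G protein subunit, by 2.28 ± 0.46 (SE, adjusted p = 0.0118). Stmn2, a stathmin of growing neurites, differed by 1.92 ± 0.29 (adjusted p = 0.00198), and Gap43, of growth cones, by 1.03 ± 0.23 (adjusted p = 0.0206). Prph, the peripheral neurofilament peripherin, differed by 1.47 ± 0.29 (adjusted p = 0.0106). Uchl1 at 0.80 (adjusted p = 0.170) and Cartpt at 0.57 (adjusted p = 0.374) were the tested markers not called. The Gap43 call ended without DA replicate 1 of the Eln model, AA replicate 2 of the Efemp2 model or DA replicate 1 of the Lox model, at an adjusted p of up to 0.0599.

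Glia gave a smaller count. Of 6 tested Schwann cell markers 1 was called, Fabp7, a fatty acid binding protein of glia and satellite cells, at 1.76 ± 0.32 (SE, adjusted p = 0.00605). Sox10, the defining factor of the glial lineage, was at -0.01 (adjusted p = 0.997).

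**Figure D3:**
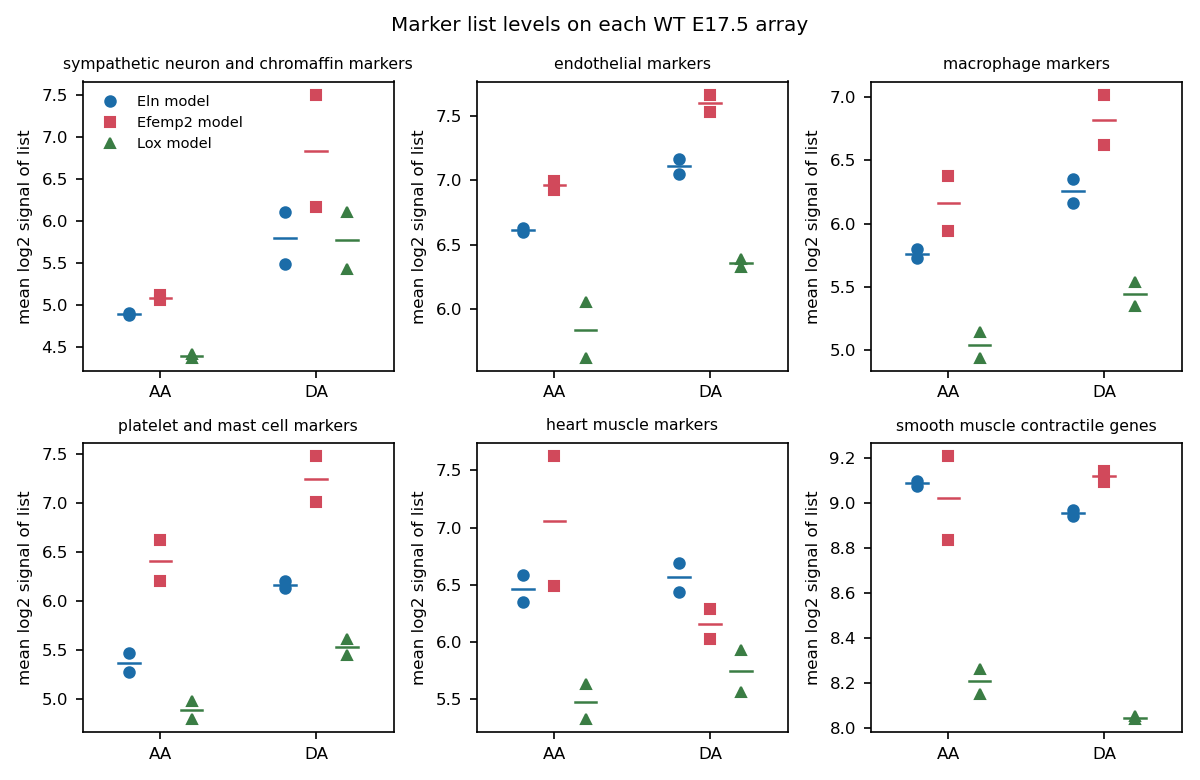
Mean log2 signal (y axis) of 6 marker lists on each of the 12 arrays, by location and model, with a line at the mean of each pair of arrays. The neuronal, endothelial, macrophage and platelet and mast cell lists lie higher in DA within each model, and 1 AA array of the Efemp2 model has the highest heart muscle mean, 7.62.

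Of 18 tested endothelial genes 8 were higher in DA, with none lower and a median of 0.49. Over all genes tested 2.59% were higher and 1.44% lower. The list mean was 5.63 to 6.99 on the AA arrays and 6.33 to 7.66 on the DA arrays. Kdr, the main receptor for vascular endothelial growth factor, read 4.84, 5.94 and 6.69 in AA and 6.71, 7.02 and 7.61 in DA. Its arrays did not overlap, and the difference was 1.25 ± 0.17 (SE, adjusted p = 0.000924). Vwf, von Willebrand factor, differed by 1.19 ± 0.13 (SE, adjusted p = 0.000171) and Plvap, a diaphragm protein of fenestrated capillaries, by 1.13 ± 0.19 (SE, adjusted p = 0.00341). Sox18 at 1.11 ± 0.22 (adjusted p = 0.0120) and Sox17 at 0.50 ± 0.12 (adjusted p = 0.0267) encode factors of vessel identity. The junction genes Cldn5 and Cdh5 differed by 0.68 ± 0.13 (adjusted p = 0.00938) and 0.51 ± 0.09 (adjusted p = 0.00716), and Robo4 by 0.51 ± 0.12 (adjusted p = 0.0299). Among the 10 not called were Pecam1 at 0.16 (adjusted p = 0.528), Tie1 at 0.15 (adjusted p = 0.654) and Tek at -0.01 (adjusted p = 0.992). The calls of Robo4 and Sox17 ended without any 1 of 8 and 7 arrays, at up to 0.0861 and 0.0822.

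Aplnr, the apelin receptor of endothelial and venous cells, was among the 15 highest genes. It read 3.82, 5.68 and 6.03 in AA and 6.17, 7.55 and 8.38 in DA, with no overlap, and differed by 2.07 ± 0.18 (SE, adjusted p = 2.37e-05). None of 6 tested lymphatic markers was called, though all had differences above 0, from 0.17 for Flt4 to 0.75 for Prox1 (adjusted p = 0.159).

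Of 10 tested markers of mast cells and platelets 6 were higher in DA, with none lower and a median of 0.67. The share over all genes tested was 2.59% higher. The 4 mast cell protease genes differed most. Cpa3, carboxypeptidase A3, read 6.43, 7.51 and 8.46 in AA and 8.25, 8.94 and 9.93 in DA and differed by 1.46 ± 0.19 (SE, adjusted p = 0.000535). Mcpt4, Tpsb2 and Cma1 differed by 1.52 ± 0.23 (adjusted p = 0.00168), 1.34 ± 0.27 (adjusted p = 0.0116) and 1.17 ± 0.24 (adjusted p = 0.0130). Kit, the mast cell growth factor receptor, differed by 0.60 ± 0.12 (adjusted p = 0.0104) and Pf4, platelet factor 4, by 0.74 ± 0.15 (adjusted p = 0.0136). The platelet genes Gp9 and Itga2b were at 0.07 (adjusted p = 0.931) and 0.21 (adjusted p = 0.446). In each of the 12 analyses without 1 array 6 of the list were called.

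Of 13 tested macrophage markers 5 were higher, with none lower and a median of 0.57, where 2.59% of all genes tested were higher. Leaving out single arrays gave 3 to 6, with 3 without AA replicate 1 or DA replicate 2 of the Eln model, DA replicate 2 of the Efemp2 model or DA replicate 2 of the Lox model. Cd163 and Mrc1, scavenger and mannose receptors of resident macrophages, differed by 0.82 ± 0.15 (SE, adjusted p = 0.00758) and 0.80 ± 0.19 (SE, adjusted p = 0.0285). Csf1r, the receptor for macrophage growth factor, differed by 0.72 ± 0.16 (SE, adjusted p = 0.0197), and Adgre1 and C1qc by 0.57 and 0.55. Without AA replicate 1 of the Eln model Csf1r reached an adjusted p of 0.0521. Mrc1 and C1qc lost their calls without any 1 of 7 and 4 arrays, at up to 0.0750 and 0.0711. Cd68 and C1qa were at 0.52 (adjusted p = 0.100) and 0.39 (adjusted p = 0.641). Ccl11, the eosinophil chemoattractant eotaxin, stood out from these. It read 5.36, 5.78 and 6.40 in AA and 7.73, 8.04 and 8.61 in DA, with a gap between the groups of more than 1 unit. The difference was 2.28 ± 0.17 (SE, adjusted p = 8.03e-06), or 4.86-fold.

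Transcripts of hepatocytes, which make plasma proteins, were higher for 4 of 8 tested genes, Alb, Apoa2, Ttr and Fgb, with a median of 0.77. Over all genes tested the share was 2.59%. Alb, serum albumin, varied widely, at 3.88, 6.49 and 7.84 in AA and 7.21, 7.93 and 9.27 in DA, and differed by 1.58 ± 0.40 (SE, adjusted p = 0.0390). In the Lox model the difference was 2.82, and in the Eln and Efemp2 models 0.85 and 1.07. The calls of Alb and Apoa2 ended without any 1 of 9 and 7 arrays, at an adjusted p of up to 0.0964 and 0.0750. Ttr and Fgb kept theirs without any single array and lost them with all 48 arrays in the fit. Of the list 2 to 4 were called without single arrays, 2 of them without AA replicate 1 or DA replicate 1 of the Eln model, AA replicate 1 or DA replicate 2 of the Efemp2 model or DA replicate 2 of the Lox model. The list mean was 4.06 to 6.44 on the AA arrays and 5.46 to 7.29 on the DA arrays. None of 12 adrenal cortex and kidney markers on the array reached the level for testing. Their list mean was 3.0 to 3.65 on the AA arrays and 2.88 to 3.77 on the DA arrays.

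Of 19 tested heart muscle markers 5 were lower in DA, 1 was higher and the median was -0.03. Over all genes tested 1.44% were lower and 2.59% higher. The lower ones were the myosin chain genes Myh7 at -1.32 ± 0.29 (SE, adjusted p = 0.0175), Myl3 at -1.12 ± 0.19 (SE, adjusted p = 0.00378) and Myl2 at -0.96 ± 0.15 (SE, adjusted p = 0.00223), the cardiac troponin T gene Tnnt2 at -1.14 ± 0.23 (SE, adjusted p = 0.0106) and the natriuretic peptide Nppa at -0.92 ± 0.16 (SE, adjusted p = 0.00494). Sln, sarcolipin, was higher by 1.07 ± 0.23 (SE, adjusted p = 0.0178). Myl7 and Myh6 were at 0.83 (adjusted p = 0.360) and 0.92 (adjusted p = 0.233). Within each model both DA arrays lay below both AA arrays for the 5 lower genes. That order was shown by 144 of the 177 genes called lower and by 2.56% of all genes tested.

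Array means of this list did not separate the locations. They were 6.35 and 6.58 in AA and 6.69 and 6.44 in DA of the Eln model, and 5.32 and 5.63 against 5.93 and 5.56 in the Lox model. In the Efemp2 model they were 7.62 and 6.49 against 6.02 and 6.28. Without AA replicate 1 of that model 4 markers were higher and 6 lower, and the 5 named above stayed called, with Myh7 at -1.04 (adjusted p = 0.0099) and Tnnt2 at -1.03. Myh7 lost its call without AA replicate 1 of the Eln model or DA replicate 1 of the Efemp2 model, at an adjusted p of up to 0.0525. Sln lost it without any 1 of 4 arrays, at up to 0.0552.

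Lymphoid and epithelial markers held 1 call each. Cd3g, a chain of the T cell receptor complex, was lower, at -1.10 ± 0.26 (SE, adjusted p = 0.0308), while Cd3e was at -0.23 (adjusted p = 0.602) and Cd8a at -0.30 (adjusted p = 0.490). The Cd3g difference was -1.52 and -1.69 in the Eln and Efemp2 models and -0.08 in the Lox model, and the call ended without any 1 of 8 arrays, at up to 0.0878. Krt18, a keratin of simple epithelia, was lower, at -0.52 ± 0.11 (SE, adjusted p = 0.0165), and was lost without any 1 of 3 arrays, at up to 0.0563. A dimmer probe set of Krt18 gave -0.34, and the Krt18 call also ended when the gene's probe sets were averaged. Skeletal muscle, brown fat and erythroid lists had no call among 10, 9 and 3 tested genes. The part of such cells in the differences of other genes was not tested.

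Of 21 tested contractile genes of smooth muscle none was higher and 2 were lower, with a median of -0.04, where 2.59% and 1.44% of all genes tested were higher and lower. Without AA replicate 1 of the Efemp2 model 4 were lower, and without the other single arrays 1 to 3. Myocd, the coactivator that switches on the contractile program, was lower, at -0.46 ± 0.11 (SE, adjusted p = 0.0326) and lost its call without any 1 of 9 arrays, at up to 0.0819. Pdlim3, a protein of the actin lattice, read 9.98, 10.44 and 10.68 in AA and 9.21, 9.89 and 10.08 in DA and was lower, at -0.65 ± 0.13 (SE, adjusted p = 0.00957). Acta2 was at -0.09 ± 0.13 (SE, adjusted p = 0.863), Tagln at -0.01 ± 0.12 (SE, adjusted p = 0.992) and Myh11 at 0.40 ± 0.12 (SE, adjusted p = 0.102).

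Elastic fibre genes gave 2 calls among 19 tested, with a median of -0.08, where 4.03% of all genes tested were called. Efemp1, fibulin-3, read 7.69, 8.61 and 9.12 in AA and 6.33, 7.52 and 7.99 in DA. Within each model the DA arrays were lower, and the difference was -1.20 ± 0.15 (SE, adjusted p = 0.000441), or 2.30-fold. Emilin2 was higher by 0.55 ± 0.13 (SE, adjusted p = 0.0294), a call that ended without any 1 of 6 arrays at up to 0.0859. The genes of the study's models gave 0.29 ± 0.29 for Eln (SE, adjusted p = 0.754) and -0.16 ± 0.09 for Lox (SE, adjusted p = 0.507). Eln spread widely, from 9.69 on AA replicate 1 of the Efemp2 model to 11.70 on replicate 2. Without the first of these arrays its difference was -0.05 (adjusted p = 0.921), and over the 24 alternative analyses it ran from -0.06 to 0.48. Efemp2 itself was not analysed here.

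Among 20 collagen chains 4 were higher and 1 was lower, with a median of 0.23. Col8a1, a short-chain collagen chain, read 3.48, 4.74 and 5.15 in AA and 6.06, 6.60 and 7.01 in DA. These groups were apart, and the difference was 1.95 ± 0.18 (SE, adjusted p = 4e-05), or 3.85-fold. Col12a1, a fibril-associated collagen, and Col11a1, a chain that sets fibril diameter, differed by 1.06 ± 0.12 (SE, adjusted p = 0.000266) and 1.02 ± 0.11 (SE, adjusted p = 0.000138). Col8a2 differed by 0.49 ± 0.11 (SE, adjusted p = 0.0244), lost without any 1 of 6 arrays at up to 0.0711, and Col24a1 was lower, at -0.74 ± 0.11 (SE, adjusted p = 0.00190).

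In other matrix lists the calls were scattered. Of 12 cartilage genes Acan, aggrecan, was lower, at -0.85 ± 0.17 (SE, adjusted p = 0.0106) and Col10a1 higher by 0.82 ± 0.19 (SE, adjusted p = 0.0236). Of 17 basement membrane genes Lama3 was higher by 0.80 ± 0.15 (SE, adjusted p = 0.00679), and Lama2 and Col4a5 were lower, at -0.48 ± 0.10 (SE, adjusted p = 0.0142) and -0.67 ± 0.15 (SE, adjusted p = 0.0220). Of 17 proteoglycan and fibroblast genes Dpt, dermatopontin, was lower, at -0.57 ± 0.13 (SE, adjusted p = 0.0237) and Dpp4 at -0.68 ± 0.17 (SE, adjusted p = 0.0411). The calls of Col10a1, Col4a5, Dpt and Dpp4 ended without any 1 of 3, 6, 4 and 9 arrays, at up to 0.0663, 0.0669, 0.0664 and 0.111.

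Guidance genes, which steer growing axons and vessels, showed calls in both directions. Of 26 tested 4 were higher and 9 were lower, with a median of -0.12, where 2.59% and 1.44% of all genes tested were higher and lower. Leaving out single arrays gave 4 to 9 lower, with 4 without DA replicate 1 of the Lox model and 5 without AA replicate 2 or either DA array of the Eln model, either DA array of the Efemp2 model or AA replicate 2 of the Lox model. Among ligands, Efna5, an ephrin held at the cell surface, read 8.30, 9.02 and 9.22 in AA and 7.5, 7.86 and 8.20 in DA. Its groups did not overlap, and it was lower, at -1.08 ± 0.14 (SE, adjusted p = 0.000471). The secreted semaphorins Sema3c, which guides cells into the outflow tract, and Sema3d were lower, at -0.99 ± 0.15 (SE, adjusted p = 0.00166) and -0.64 ± 0.14 (SE, adjusted p = 0.0177). Slit2, the repellent ligand of the Robo receptors, was higher by 0.76 ± 0.15 (SE, adjusted p = 0.00997), and the netrin Ntn4 was lower, at -0.76 ± 0.18 (SE, adjusted p = 0.0270). The arterial ephrin Efnb2 was lower, at -0.49 ± 0.12 (SE, adjusted p = 0.0353).

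Receptors of these ligands were also called. Robo1 read 6.97, 7.68 and 7.99 in AA and 5.98, 6.65 and 6.85 in DA, without overlap, and was lower, at -1.05 ± 0.15 (SE, adjusted p = 0.00138), and Robo2 was lower, at -0.77 ± 0.17 (SE, adjusted p = 0.0197). Plxnd1, a semaphorin receptor of endothelium, was higher by 1.02 ± 0.12 (SE, adjusted p = 0.000377), and its partner Nrp2 by 0.89 ± 0.19 (SE, adjusted p = 0.0150). Plxna4 was higher by 0.58 ± 0.14 (SE, adjusted p = 0.0332) and Plxna2 lower, at -0.44 ± 0.11 (SE, adjusted p = 0.0332). Epha7, an ephrin receptor, was lower, at -0.80 ± 0.20 (SE, adjusted p = 0.0416). Sema3d lost its call without DA replicate 2 of the Eln model (adjusted p = 0.0502), and Robo2 without DA replicate 1 of the Efemp2 or of the Lox model (up to 0.0591). Ntn4, Efnb2, Plxna4, Plxna2 and Epha7 lost theirs without any 1 of 8, 10, 9, 8 and 11 arrays, at up to 0.0757, 0.104, 0.0943, 0.0971 and 0.0991. Flrt3, a membrane protein that binds Robo and Unc5 receptors, belonged to the 15 lowest genes, at -1.55 ± 0.14 (SE, adjusted p = 2.37e-05).

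**Figure D4:**
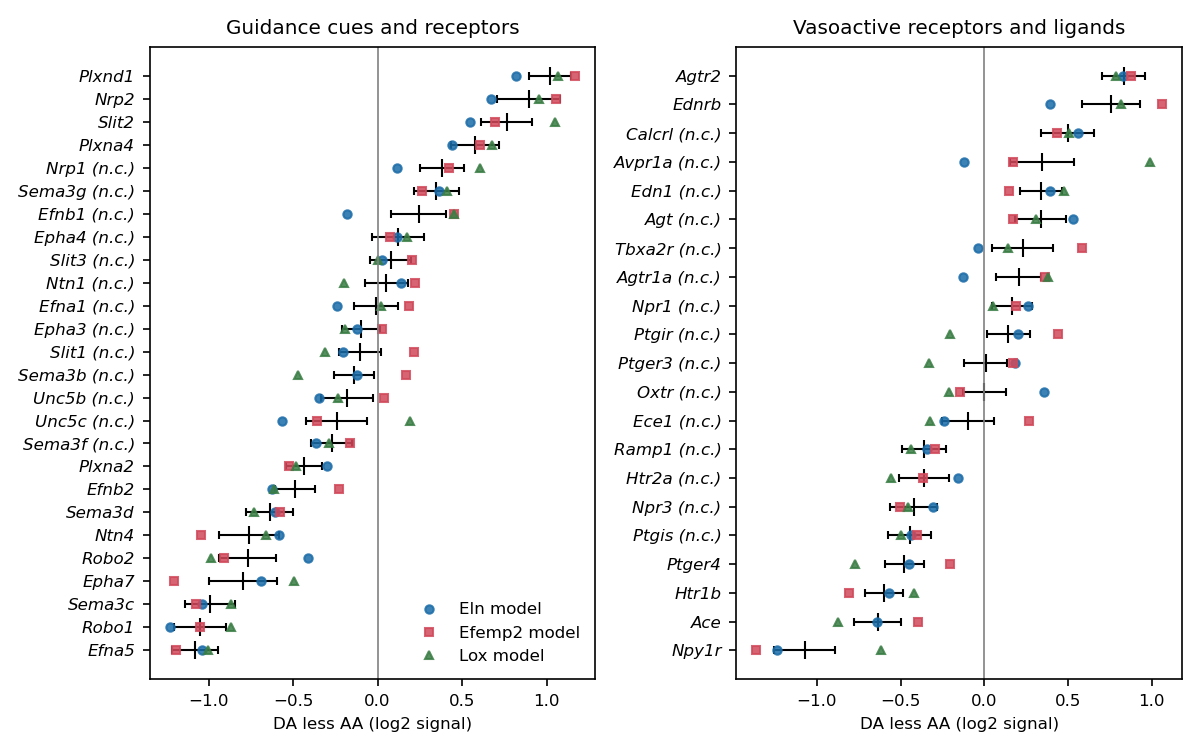
DA less AA (log2 signal, x axis) of the 26 tested guidance genes and the 21 tested vasoactive genes, each ordered by size. Black bars are the fitted difference and SE, coloured points the 3 models, and n.c. marks genes that were not called. Guidance genes span from Efna5 at -1.08 to Plxnd1 at 1.02, and vasoactive genes from Npy1r at -1.07 to Agtr2 at 0.83.

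Receptors and enzymes of vascular tone gave 2 higher and 4 lower genes among 21 tested. Leaving out single arrays gave 2 to 5 lower, with 2 without AA replicate 2 or either DA array of the Eln model, AA replicate 2 of the Efemp2 model or either DA array of the Lox model. Their median was 0.01 and changed sign under cyclic loess and quantile normalization, to -0.00314 and -0.0175. Agtr2, the type 2 angiotensin receptor of fetal mesenchyme, read 7.62, 7.84 and 8.99 in AA and 8.44, 8.63 and 9.63 in DA. The groups overlapped across models, each model separated, and the difference was 0.83 ± 0.13 (SE, adjusted p = 0.00203). Agtr1a, the receptor that constricts vessels, was at 0.21 (adjusted p = 0.575). Ace, the angiotensin converting enzyme, was lower, at -0.64 ± 0.14 (SE, adjusted p = 0.0198). Npy1r, the receptor for neuropeptide Y on vascular muscle, was lower, at -1.07 ± 0.18 (SE, adjusted p = 0.00387), while its ligand gene Npy was higher. Ednrb, the B type endothelin receptor, was higher by 0.76 ± 0.18 (SE, adjusted p = 0.0266), Htr1b, a serotonin receptor, was lower, at -0.60 ± 0.11 (SE, adjusted p = 0.00841) and Ptger4, the prostaglandin receptor of the ductus arteriosus, at -0.48 ± 0.12 (SE, adjusted p = 0.0378). The calls of Ace, Ednrb and Ptger4 ended without any 1 of 6, 6 and 10 arrays, at up to 0.0572, 0.0757 and 0.103. Chrm2, the muscarinic receptor that slows the heart, was among the 15 lowest genes, at 5.30, 6.17 and 6.75 in AA and 4.0, 4.61 and 4.94 in DA, a difference of -1.52 ± 0.16 (SE, adjusted p = 0.000152).

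Of 16 ion channel and junction genes of smooth muscle 2 were higher and 1 was lower. Kcnma1, the large calcium-activated potassium channel, was higher by 0.68 ± 0.13 (SE, adjusted p = 0.00825), though a dimmer probe set of the gene gave -0.06. Gja5, a connexin of arterial endothelium, was higher by 0.72 ± 0.16 (SE, adjusted p = 0.0245), lost without any 1 of 6 arrays at up to 0.0706. Clca3a2, of a family first described as chloride channels, read 10.41, 10.70 and 10.96 in AA and 9.56, 9.91 and 10.28 in DA and was lower, at -0.75 ± 0.12 (SE, adjusted p = 0.00232).

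Growth factor ligands included some of the clearest differences. Vegfd, a ligand for lymphatic and vascular growth, read 6.96, 7.59 and 7.85 in AA and 9.19, 9.38 and 9.65 in DA. The lowest DA array was more than 1 unit above the highest AA array, the difference was 1.88 ± 0.15 (SE, adjusted p = 8.67e-06), and the 3 models gave 1.82, 1.95 and 1.88. Fgf7, the keratinocyte growth factor of mesenchyme, went from 4.33, 5.2 and 5.54 to 6.03, 6.40 and 6.61, again apart, and differed by 1.30 ± 0.16 (SE, adjusted p = 0.000456). Igf1 and its binding protein gene Igfbp3 were higher by 0.58 ± 0.13 (SE, adjusted p = 0.0277) and 0.60 ± 0.15 (SE, adjusted p = 0.0365), calls that ended without any 1 of 6 and 8 arrays, at up to 0.0745 and 0.0984. In the FGF, IGF and PDGF list 4 of 23 tested genes were higher and none was lower, and 2 were higher without AA replicate 2, DA replicate 1 or DA replicate 2 of the Eln model.

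Among 26 tested TGF-beta and BMP genes 3 were higher and 1 was lower, where 2.59% and 1.44% of all genes tested were higher and lower. Chrdl1, a secreted BMP antagonist, read 4.45, 5.56 and 5.89 in AA and 6.03, 7.21 and 7.48 in DA. All DA arrays lay above all AA arrays, with a difference of 1.57 ± 0.12 (SE, adjusted p = 8.67e-06). The ligand Bmp7 was lower, at -0.80 ± 0.15 (SE, adjusted p = 0.00791), and the ligands Gdf10 and Tgfb3 were higher by 0.67 ± 0.15 (SE, adjusted p = 0.0204) and 0.48 ± 0.10 (SE, adjusted p = 0.0169). Gdf10 lost its call without any 1 of 4 arrays (up to 0.0622), and Tgfb3 without AA replicate 1 or DA replicate 2 of the Eln model (up to 0.0577).

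Hhip, a membrane protein that binds hedgehog ligands and is itself induced by the pathway, was the 1 hedgehog gene called of 11 tested. It read 3.92, 4.48 and 5.00 in AA and 6.16, 6.49 and 6.85 in DA, with no overlap. The difference was 2.00 ± 0.13 (SE, adjusted p = 2.42e-06), or 3.99-fold, and the 3 models gave 1.87, 2.11 and 2.01. Other readouts of the pathway were not called, with Ptch1, the receptor, at -0.22 (adjusted p = 0.637) and Gli1, a target and effector, at 0.17 (adjusted p = 0.730).

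Retinoic acid genes gave 2 higher of 14 tested, the binding protein Crabp1 at 1.13 ± 0.25 (SE, adjusted p = 0.0192) and the retinal reductase Dhrs3 at 0.45 ± 0.11 (SE, adjusted p = 0.0383). Crabp1 was lost without AA replicate 1 of the Eln model or DA replicate 2 of the Efemp2 model (up to 0.0503), and Dhrs3 without any 1 of 9 arrays (up to 0.0913). Of 26 Wnt genes the antagonist Dkk2 was higher by 0.49 ± 0.11 (SE, adjusted p = 0.0269), and Dkk3 and Frzb were lower, at -0.66 ± 0.15 (SE, adjusted p = 0.0270) and -0.61 ± 0.15 (SE, adjusted p = 0.0378). Without AA replicate 1 of the Lox model 5 Wnt genes were lower. The calls of Dkk2, Dkk3 and Frzb ended without any 1 of 8, 5 and 10 arrays, at up to 0.0810, 0.0800 and 0.107. No Notch gene of 15 tested was called. The immediate early, cell cycle, glucocorticoid and interferon lists, with 19, 19, 11 and 8 tested genes, had no call. In the hypoxia list Egln3, an oxygen-sensing hydroxylase, was lower, at -0.77 ± 0.20 (SE, adjusted p = 0.0449), 1 of 12 tested, and was lost without any 1 of 9 arrays, at up to 0.112.

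The remaining genes of the 15 highest and 15 lowest belonged to no list. Fads2b, of the fatty acid desaturase family, was higher by 1.93 ± 0.17 (SE, adjusted p = 2.37e-05). On the lower side, Colec10, a collectin of innate immunity, read 4.6, 5.54 and 6.12 in AA and 3.26, 3.77 and 4.25 in DA and differed by -1.67 ± 0.21 (SE, adjusted p = 0.000385). Ephx2, soluble epoxide hydrolase, which degrades the vasodilator epoxides of arachidonic acid, read 6.40, 7.36 and 7.41 and 4.70, 5.61 and 5.94 and differed by -1.58 ± 0.12 (SE, adjusted p = 8.03e-06). Neither gene showed an overlap of the groups. Cd55, an inhibitor of complement on the cell surface, differed by -1.45 ± 0.18 (SE, adjusted p = 0.000377), and Car8, a protein of the carbonic anhydrase family, by -1.36 ± 0.15 (SE, adjusted p = 0.000153). Kcnip4, a potassium channel subunit, differed by -1.36 ± 0.14 (adjusted p = 0.000100), Nts, the peptide neurotensin, by -1.32 ± 0.20 (adjusted p = 0.00200) and Cst9, a cystatin, by -1.48 ± 0.21 (adjusted p = 0.00123). Defb2, a beta-defensin, differed by -1.62 ± 0.33 (adjusted p = 0.0130) and Crygb, a crystallin, by -1.46 ± 0.34 (adjusted p = 0.0270). Fads2b, Colec10, Cst9, Defb2 and Crygb were too dim to be tested under a stricter filter on dim genes. Defb2 lost its call without the Efemp2 or the Eln model, at an adjusted p of up to 0.151. The Crygb call ended without any 1 of 8 arrays, at up to 0.0729, and in the Lox model its difference was -2.58 against -0.88 and -0.92.

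The F test of limma for a difference in DA less AA among the 3 models called no gene of 12259, and 356 had an unadjusted p under 0.05. Without AA replicate 2 of the Efemp2 model, which leaves the array that stands apart as the lone AA sample there, 92 genes were called, under the assumption that a lone sample varies like the other groups. Of the pairs, Efemp2 less Lox gave 1 call (0.00816% of the genes tested), Zfp992, a zinc finger gene, at -2.58 ± 0.30 (SE, adjusted p = 0.0294). The other pairs gave none, with 333 genes at an unadjusted p under 0.05 for Efemp2 less Eln and 192 for Eln less Lox.

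The same contrast was then taken in the 12 KO arrays of that day, which lack Eln, Efemp2 or Lox and share no array with the WT comparison. Eln read 4.23 to 4.84 on the 4 KO arrays of its model against 10.95 to 11.16 on the WT arrays, and Lox 6.26 to 7.99 against 9.55 to 9.84 in its own. There 790 of 12420 genes were called (6.36%), 559 higher (4.5%) and 231 lower (1.86%). The share of higher genes was 70.8%, and 59.9% after cyclic loess. Of the 317 genes higher in WT 212 were also called higher in KO, which is 66.9% of the WT genes and 37.9% of the KO genes. Of the 177 lower genes 80 were called lower in KO, 45.2% of the WT genes and 34.6% of the KO genes. The sign was the same for 310 of the 315 higher genes tested in KO and for 158 of the 170 lower ones. The share of all genes tested with the same sign is not given here, so these counts have no base beside them.

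Hoxb6 differed in KO by 2.09 (adjusted p = 5.51e-05), Hhip by 1.94 (adjusted p = 5.51e-05), Dbh by 2.89 (adjusted p = 0.00112) and Osr2 by -1.50 (adjusted p = 0.000982). Of 15 tested neuronal and chromaffin markers all 15 were higher in KO, and of 18 endothelial markers 9. The same filter was used on the KO groups, so a marker could again enter through DA alone. Chrm2 was at -0.41 in KO (adjusted p = 0.142) and Nts at -0.23 (adjusted p = 0.506), against -1.52 and -1.32 in WT. The guidance gene Ntn4 was the 1 gene called in opposite directions, at -0.76 in WT and 0.52 in KO (adjusted p = 0.0364). The test of that difference gave 1.28 (adjusted p = 0.114). By the test of location with genotype, no gene of 12754 was called, and 1081 had an unadjusted p under 0.05. Without AA replicate 2 or DA replicate 1 of the Efemp2 WT, 1 gene was called.

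**Figure D5:**
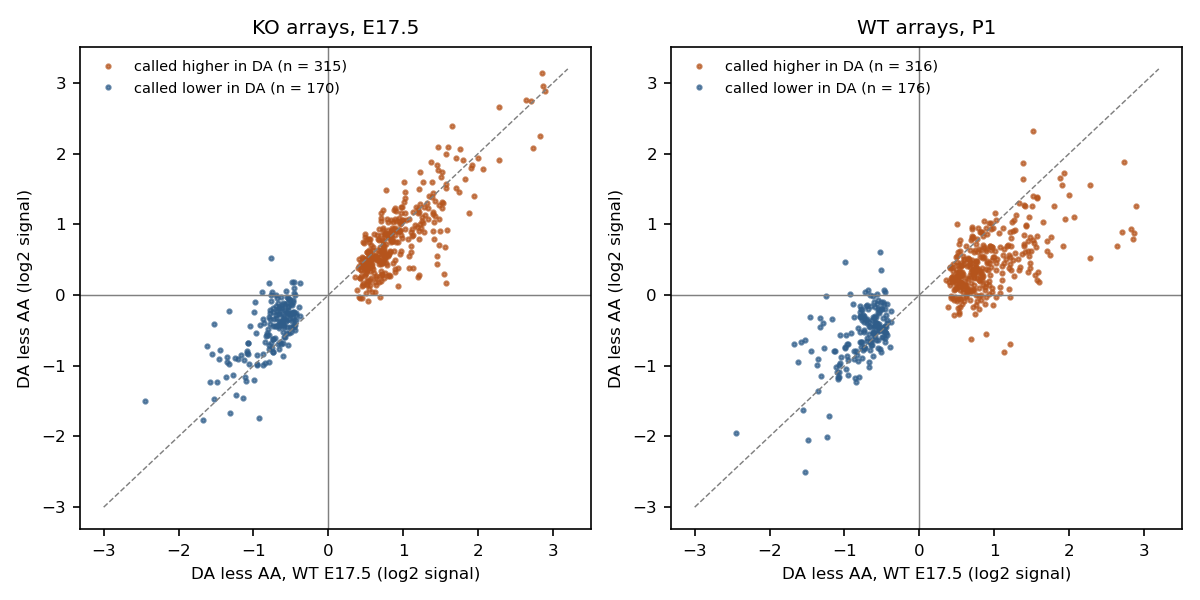
DA less AA of the genes called in WT at E17.5 (x axis, log2 signal) against DA less AA in the KO arrays of E17.5 (left) and in the WT arrays of P1 (right). Each point is a gene, orange where it was higher and blue where it was lower on the x axis, and the dashed line marks equal differences. Of the higher genes 310 of 315 share the sign in KO and 278 of 316 at P1, with no share over all genes tested to set beside these counts. Genes that were not called are not shown.

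In the 12 WT arrays of P1, 49 of 15151 genes were called (0.323%), 26 higher (0.172%) and 23 lower (0.152%). Of the E17.5 genes 25 of the 317 higher ones (7.89%, and 96.2% of the P1 genes) and 17 of the 177 lower ones (9.60%, and 73.9%) were called in the same direction at P1. The sign was the same for 278 of 316 and 166 of 176, again without the share over all genes tested. The unadjusted p was under 0.05 for 1923 genes. The P1 count depended on single arrays, with 13 to 43 genes called when 1 of the 12 was left out.

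Osr2 was at -1.95 at P1 (adjusted p = 0.000184), Tcf21 at -2.50 (adjusted p = 0.000231) and Efemp1 at -1.71 (adjusted p = 0.00412). Vegfd was at 1.66 (adjusted p = 0.000633), Hhip at 1.42 (adjusted p = 0.00279) and Hoxb6 at 1.89 (adjusted p = 0.0134). These 6 genes passed at each of the ages. The neuronal and chromaffin genes did not, with none of 16 tested called at P1, a median of 0.58, Dbh at 1.26 (adjusted p = 0.227) and Chgb at 0.79 (adjusted p = 0.335). Of 18 endothelial markers none was called at P1, and their median was 0.18. The difference between ages was tested directly, and no gene of 15217 was called, while 1302 had an unadjusted p under 0.05. For Chgb the difference of P1 less E17.5 was -2.07 (adjusted p = 0.528).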

How the data were processed

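The authors deposited 1 log2 value per probe set and array, made with RMA in Affymetrix Expression Console per the submitters' processing notes. RMA subtracts background, sets arrays to 1 distribution and summarises probes, and can compress differences of dim genes. Versions, array name, genome build and scan dates are not given in the sources used here.

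Of 41345 probe sets 23521 carried 1 gene symbol, 1814 several and 16010 none. The brightest single-symbol probe set stood for each of 22180 genes, of which 21994 matched RefSeq by gene ID. A gene was tested when 1 of the 6 group means reached 4.94, the median of single-symbol values, which left 12259. limma 3.58.1 in R 4.3.3 fitted location with model as a block (8 residual degrees of freedom) to the 12 arrays, after a check on simulated data. KO and P1 arrays were fitted alike, and their differences from the WT arrays of E17.5 as contrasts of 24 arrays. The number of arrays limits the precision.

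The genes, the 41 gene lists (744 genes, 557 tested) and the rules were chosen with earlier results of these data known. The text names the 15 highest and 15 lowest called differences (predicted genes and receptor and small RNA families skipped), up to 6 called members per list and tested Hox genes. Further list members and the genes under other observations were chosen after their values were seen. Lists are described by counts and medians, with no test.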

Additional observations from a re-analysis of the deposited data

Results flagged for a closer look

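Zfp992, a gene of the zinc finger family, was the 1 gene whose DA less AA differed between models by a test of the difference itself. It read 6.74 and 6.92 on the AA arrays and 5.59 and 5.46 on the DA arrays of the Efemp2 model, and 6.20 and 6.45 against 7.41 and 7.78 in the Lox model. In the Eln model it read 6.84 and 6.91 in AA and 7.02 and 6.60 in DA. DA less AA was thus -1.30 in the Efemp2 model, -0.06 in the Eln model and 1.27 in the Lox model. The difference of Efemp2 less Lox was -2.58 ± 0.30 (SE, limma, adjusted p = 0.0294 over 12259 genes). In the F test over the 3 models the adjusted p of Zfp992 was 0.120. The call of the pair ended with a replicate block (adjusted p = 0.206), with array background as a covariate (0.0592) and in 11 of the 12 analyses that left out 1 array, in which the adjusted p reached 0.296. The mice of the Lox model carry another strain label than those of the Efemp2 model, so strain and model cannot be told apart here.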

How the results depend on the processing

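Counts of called genes in WT at E17.5 ran from 341 to 559 under the alternatives to the filter, normalization, samples in the fit, variance model, background and probe set, against 494. The stricter filter on dim genes left 204 of the higher genes in place of 317. Without single arrays the count was 347 to 535, with 228 to 327 higher and 110 to 208 lower. Without the Efemp2 model 257 genes were called (153 higher, 104 lower), without the Eln model 110 (81 and 29) and without the Lox model 221 (138 and 83), with fewer arrays in each fit. Of the 155 called genes followed singly none changed sign, and of those not called Eln, Hoxa3 and Hoxa4 did. Of 123 named genes that were called, 47 kept their call in every alternative that tested them, out of up to 24. Another 76 lost it in some and 33 in 6 or more, and of the 15 highest and 15 lowest genes 25 kept it. Fads2b, Colec10, Cst9, Hoxc4, Hoxc8 and Hoxa7 are among those kept. They were not tested under the stricter filter on dim genes, which left 23 alternatives for each. Samples of the same number correlated in their deviations from the group means at 0.03, 0.26 and -0.09 in the Eln, Efemp2 and Lox models, and no label ties a number to a litter or day, so the fits were left unpaired. With the replicate block 468 genes were called in WT at E17.5, 296 higher and 172 lower, of which 421 were among the 494. Of the 155 genes, 17 lost their call with the block, at an adjusted p of 0.0519 to 0.0755: Alb, Apoa2, Cd3g, Crygb, Ednrb, Efnb2, Egln3, Gata5, Gata6, Gucy1a1, Hoxa9, Igfbp3, Npy, Plxna4, Ptger4, Robo4 and Sqle. At P1 the block left 18 genes in place of 49, no filter 31 and cyclic loess 113, and leaving out single arrays 13 to 43. In KO leaving out single arrays gave 523 to 840 in place of 790. The F test between models gave 0 to 92 without single arrays, and the tests of location with genotype and with stage gave 0 to 1 each, and 0 under the other alternatives. Of called genes 35 had 60 further probe sets, of which 8 had the opposite sign. RMA values leave dim genes near background, so a gene that was not tested may still differ.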

Other observations

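The genes in this section lie outside the lists and were chosen after their values were seen. They stand as single genes, with no count of others of their kind. S100a9, a calcium-binding protein of neutrophils, was among the genes higher in DA and read 5.36, 6.77 and 7.39 in AA and 7.64, 8.18 and 8.90 in DA, with no overlap, and differed by 1.54 ± 0.27 (SE, adjusted p = 0.00557). Its partner S100a8 read 5.4, 7.18 and 7.77 in AA and 7.92, 8.43 and 9.21 in DA and differed by 1.57 ± 0.35 (SE, adjusted p = 0.0206). The stefins Stfa2l1 and Stfa1 differed by 1.48 ± 0.24 (adjusted p = 0.00335) and 1.56 ± 0.32 (adjusted p = 0.0139). Camp, the precursor of cathelicidin, differed by 0.98 ± 0.16 (adjusted p = 0.00365), Lcn2, lipocalin 2, by 0.93 ± 0.17 (adjusted p = 0.00738) and Ngp, a granule protein, by 0.64 ± 0.15 (adjusted p = 0.0339). In the KO arrays of E17.5 none of these 7 was called, with S100a9 at 0.29 (adjusted p = 0.568) and Camp at 0.62 (adjusted p = 0.134), and the test of KO less WT called no gene. S100a8 and Ngp lost their calls without any 1 of 5 and 9 of the 12 arrays, at up to 0.0571 and 0.0976.

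Some genes of neurons outside the marker list were called higher too. Chrna3 and Chrnb4, the nicotinic acetylcholine receptor subunits of autonomic ganglia, differed by 1.45 ± 0.30 (SE, adjusted p = 0.0132) and 1.22 ± 0.24 (SE, adjusted p = 0.0105). Syt1, the calcium sensor of synaptic release, differed by 1.43 ± 0.15 (SE, adjusted p = 0.000104) and Sst, the peptide somatostatin, by 1.47 ± 0.31 (SE, adjusted p = 0.0167). In the Efemp2 model Chrna3 differed by 2.65, against 0.50 and 1.19 in the Eln and Lox models.

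The genes of 3 enzymes of sterol synthesis were called higher. Fdps, which makes farnesyl diphosphate, differed by 0.80 ± 0.15 (SE, adjusted p = 0.00738), Hmgcs1, the synthase at the entry of the pathway, by 0.66 ± 0.12 (SE, adjusted p = 0.00789) and Sqle, squalene epoxidase, by 0.56 ± 0.14 (SE, adjusted p = 0.0344). In KO they differed by 0.92, 0.85 and 0.79. Lower in DA were Gucy1a1, a subunit of soluble guanylate cyclase, at -0.37 ± 0.09 (SE, adjusted p = 0.0370) and Pde5a, which degrades cyclic GMP, at -0.45 ± 0.10 (SE, adjusted p = 0.0256). The calls of Sqle, Gucy1a1 and Pde5a ended without any 1 of 11, 10 and 7 arrays, at up to 0.0866, 0.0991 and 0.0660.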
